A study of Mus musculus with 13 samples.

Results

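The genes described here are 9 transcripts of late mature oligodendrocytes whose products are not structural myelin proteins: Anln, Ermn, Ppp1r14a, Tspan2, Sirt2, Gpr37, Klk6, Hapln2 and Apod. They were found by gene symbol among 55401 named genes of the annotation, and each symbol stood for 1 gene. The 9 were chosen from earlier results of these same libraries. The values of cuprizone against control and against recovery were known, so those values are given as a description and not as a test. All 9 passed the filter on low counts, which 14985 genes passed.

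Mature oligodendrocytes wrap axons in compacted membrane, and this needs cytoskeletal proteins that shape the sheath, receptors that set the pace of differentiation, and secreted proteins that act in the matrix around the axon, as well as the structural proteins of the myelin itself. Cuprizone is a copper chelator that kills mature oligodendrocytes when it is given in the chow, most visibly in the corpus callosum, and new oligodendrocytes remyelinate the tissue after it is withdrawn. Transcripts made late in the lineage are used as markers of myelinating cells.

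RNA of snap-frozen brain hemispheres of male mice was sequenced in 13 libraries. The control group (CTL, 5 libraries) was fed control chow for 6 weeks, the cuprizone group (CPZ, 4 libraries) was fed 0.3% cuprizone for 4 weeks, and the recovery group (RCV, 4 libraries) had the same 4 weeks of cuprizone and then control chow for 2 weeks. CPZ tissue was taken at the end of week 4 and CTL and RCV tissue at the end of week 6, so CPZ differs from the others in time on study as well as in diet. The labels give an age of 6 to 8 weeks and no genetic modification, and the study's methods name wild-type C57BL/6J mice and an older age. The protocol in the labels and the methods of the paper count 4 control, 3 cuprizone and 3 recovery animals, fewer than the libraries. A figure legend of the paper counts as many samples as libraries in each group. None of them says which libraries came from separate animals. Libraries of a group differed by more than counting noise in all 22 pairs (chi-square per gene 4.49 to 17.8), but p values measure the spread between libraries only. Library totals ran from 4605100 to 8197289 estimated counts.

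The tissue carried the transcripts of the lineage in every group. All 10 structural myelin genes, among them Mbp, Mog, Cnp, Mal, Opalin and Pllp, were tested, and their summed level was 4374 to 8163 CPM (counts scaled to the library size) in CTL, 1861 to 3165 in CPZ and 5733 to 9802 in RCV. In whole hemisphere RNA, fewer cells of a type and less RNA per cell cannot be told apart.

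In the mouse genome (build mm10, gene models of GENCODE M21), 3 of the genes lie on chromosome 7: Ppp1r14a at chr7:29289308-29293801, Sirt2 at chr7:28766735-28788661 and Klk6 at chr7:43824499-43832030, all on the plus strand. Hapln2 lies at chr3:88021750-88027583 on the minus strand, and Tspan2 lies at chr3:102734529-102801513 on the plus strand. Ermn is at chr2:58045113-58052864, Gpr37 at chr6:25665878-25690729, Anln at chr9:22332012-22389188 and Apod at chr16:31296192-31314808, all on the minus strand. Sirt2 shares 778 bases with Nfkbib on the opposite strand, and Tspan2, Ermn and Anln overlap genes that did not pass the filter on low counts. It is not stated whether counting used the strand. Nfkbib, which encodes an inhibitor of NF-kappa-B, had a mean of 14.5 CPM, against 120 CPM for Sirt2 in CTL, and its log2 fold changes were 0.16 for CPZ against CTL and -0.0028 for RCV against CTL.

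The bases just upstream of the starts of these genes were read from the RefSeq promoter table (assembly GRCm38.p6, the assembly of mm10), which held 11 windows for the 9 genes. Capitals mark a match on either strand to ACAAAG or ACAATG, the core letters bound by SOX factors such as Sox10, or to CTGGCAC or CTGGTAC, the letters bound by the myelin regulator Myrf. The stretches shown end before the first annotated exon. Ppp1r14a and Klk6 are shown for having the lowest CPZ-to-CTL ratios of the 9, Hapln2 as the gene whose window held a Myrf-type match, and Apod as a secreted-protein gene whose CPZ values overlapped those of CTL.
Ppp1r14a, chr7:29289070-29289307, plus strand: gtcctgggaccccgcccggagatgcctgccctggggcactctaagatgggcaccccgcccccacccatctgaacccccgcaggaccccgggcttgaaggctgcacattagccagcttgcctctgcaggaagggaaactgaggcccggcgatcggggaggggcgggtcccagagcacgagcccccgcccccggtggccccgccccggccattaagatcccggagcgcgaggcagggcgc
Klk6, chr7:43824294-43824498, plus strand: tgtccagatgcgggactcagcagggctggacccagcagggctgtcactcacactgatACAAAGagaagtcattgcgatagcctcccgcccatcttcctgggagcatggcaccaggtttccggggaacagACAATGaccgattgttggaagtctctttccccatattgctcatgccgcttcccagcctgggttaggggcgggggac
Hapln2, chr3:88027584-88027761, minus strand: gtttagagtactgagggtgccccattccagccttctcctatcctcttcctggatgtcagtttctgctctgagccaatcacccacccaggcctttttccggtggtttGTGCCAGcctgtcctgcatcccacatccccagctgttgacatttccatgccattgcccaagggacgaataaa
Apod, chr16:31314809-31315058, minus strand: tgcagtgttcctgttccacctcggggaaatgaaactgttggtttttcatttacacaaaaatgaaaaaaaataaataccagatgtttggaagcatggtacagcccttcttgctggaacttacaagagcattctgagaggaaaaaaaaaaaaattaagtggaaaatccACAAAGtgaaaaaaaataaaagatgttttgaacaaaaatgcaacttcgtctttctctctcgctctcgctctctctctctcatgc
The Klk6 stretch held 1 match to each SOX-type motif. The Hapln2 stretch held CTGGCAC on the strand opposite to the one printed, where it reads GTGCCAG. The Apod stretch held ACAAAG, and the Ppp1r14a stretch held none of the 4 motifs. Klk6 has a second window in the table, at chr7:43825200-43825499, which is not shown and held none of them. Over whole windows of 250 bases before and 50 bases after the start, 6 of the 11 windows held a SOX-type motif, against 28.6% of all 32851 windows, and 1 held a Myrf-type motif, against 7.1%. The windows differed in base composition. Ppp1r14a was the richest at 71.3% G and C with 25 CpG dinucleotides, Apod was the poorest at 37.3% with 4, and the median of all windows was 52.7% with 7. A match is a run of letters and not a measured binding site, and binding was not measured here.

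On the length-scaled measure (TPM), which allows levels to be compared between genes, Apod was the most abundant of the 9 in CTL at 290 ± 53.1 TPM (mean ± SD, n = 5). Sirt2 followed at 151 ± 11.6 TPM and Tspan2 at 86.4 ± 18.8 TPM. Ermn (45.7 ± 11.2 TPM) and Gpr37 (44.5 ± 6.87 TPM) were not separated beyond their spread, and Ermn was the higher in 4 of 5 libraries. Ppp1r14a (34.2 ± 7.86 TPM) and Hapln2 (33.0 ± 9.65 TPM) were not separated either, with Ppp1r14a the higher in 3 of 5. Anln followed at 24.1 ± 7.66 TPM, and Klk6 was the lowest at 7.49 ± 2.17 TPM. The other neighbours kept their order in every CTL library. In CPZ the first 3 places were the same in all 4 libraries, with Apod at 229 ± 37.6 TPM, Sirt2 at 151 ± 6.77 TPM and Tspan2 at 36.8 ± 6.74 TPM. Below them Gpr37 stood above Ermn in 4 of 4 libraries, and Ppp1r14a had the eighth mean, at 6.99 ± 1.83 TPM, after the sixth in CTL. That place was not fixed, since Anln (9.17 ± 2.62 TPM) was above Ppp1r14a in 3 of 4 CPZ libraries and Hapln2 above Anln in 3 of 4. Summed over the 9 genes the level was 716 ± 110 TPM in CTL, 499 ± 58.6 TPM in CPZ and 804 ± 141 TPM in RCV.

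In CPZ against CTL, 6 of the 9 genes passed the edgeR test as lower (Benjamini-Hochberg adjusted over 14985 genes), and 2.5% of all genes tested did so. The 6 were Ppp1r14a, Klk6, Anln, Hapln2, Tspan2 and Ermn. In CPZ against RCV the test also gave 6 of 9 as lower, with Sirt2 in place of Ermn, and 1.88% of all genes. Without CTL library 4 the test also gave Ermn and Apod for CPZ against RCV, without CPZ library 4 it gave Apod, and without CPZ library 2 it no longer gave Sirt2. The CPZ values lay below every CTL value for 4 genes (Ppp1r14a, Anln, Hapln2 and Tspan2), which held for 4.86% of all genes tested. They lay below every RCV value for 7 genes, all but Gpr37 and Apod, which held for 4.93% of all genes. The median log2 fold change over the 9 was -1.11 for CPZ against CTL and -1.30 for CPZ against RCV, and over all genes tested it was -0.020 and -0.0066. Since the genes were chosen with these contrasts known and the 2 comparisons share the CPZ libraries, nothing is read from these counts. The plot of CPM by library shows the values gene by gene.

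**Figure D1:**
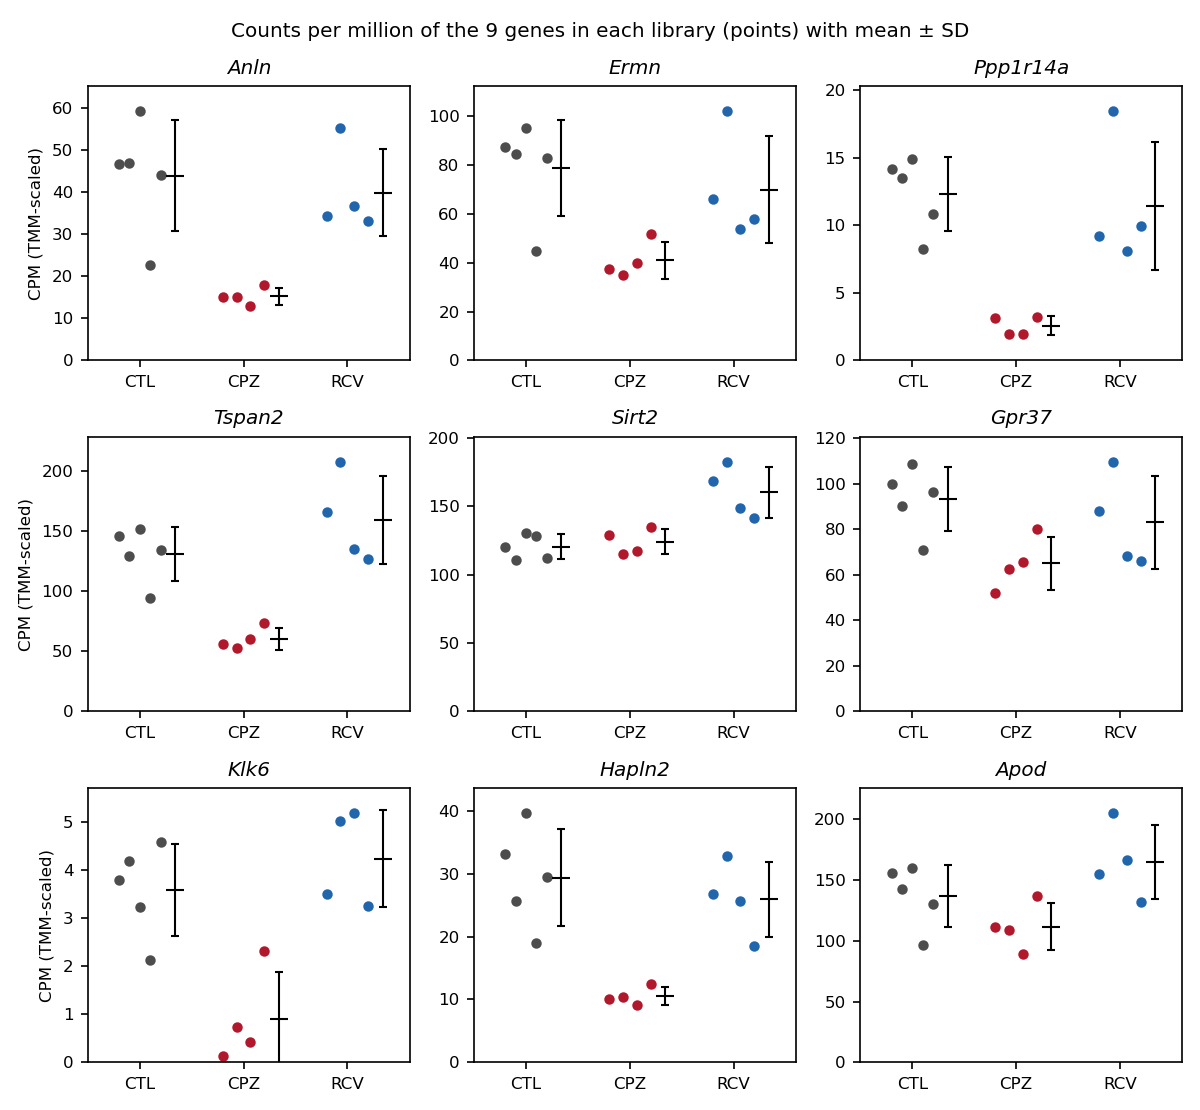
CPM (y axis, scaled by TMM, from 0) of the 9 genes in each CTL, CPZ and RCV library (points), with the group mean and SD beside them; the lower end of the CPZ bar for Klk6 falls below 0 and is not drawn. CPZ points of Ppp1r14a, Anln, Hapln2 and Tspan2 lie below all CTL points, and all RCV points of Sirt2 lie above all CTL points.

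The cytoskeletal genes ran from the lowest ratio of CPZ to CTL among the 9 to the highest. Ppp1r14a encodes CPI-17, an inhibitor of myosin phosphatase that keeps myosin light chain phosphorylated. It was read at 14.1, 13.5, 14.9, 8.26 and 10.8 CPM in CTL libraries 1 to 5, at 3.17, 1.94, 1.94 and 3.23 CPM in CPZ libraries 1 to 4 and at 9.24, 18.5, 8.08 and 9.97 CPM in RCV libraries 1 to 4. The highest CPZ library was below the lowest of the other groups, and RCV library 2 was above all CTL libraries. The CPZ mean was 20.9% of the CTL mean, the lowest share of the 9 genes, and the log2 fold change was -2.26 (standard error 0.28).

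Anln encodes anillin, a scaffold for actin, myosin and septins that serves cytokinesis in dividing cells and septin filaments along myelin in oligodendrocytes. CTL libraries 1 to 5 had 46.8, 47.0, 59.3, 22.8 and 44.0 CPM, CPZ libraries 15.0, 15.1, 12.9 and 17.9 CPM, and RCV libraries 34.3, 55.2, 36.8 and 33.2 CPM. All CPZ libraries were below all others, and CTL library 4 was far below the other CTL libraries. The log2 fold change of CPZ against CTL was -1.53 (standard error 0.25), with a CPZ mean at 34.6% of CTL. The gap was less complete in TPM, where CPZ library 1 (13.01 TPM) was above CTL library 4 (11.3 TPM), and the ratio of TPM to CPM varied more for Anln between libraries (SD 0.24 on the log2 scale) than for the typical gene (median SD 0.08).

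Genes of dividing cells moved the opposite way to Anln. Of the 8 that passed the filter on low counts, 6 rose in CPZ against CTL (5 or 6 when a library was left out, Kif11 being lost without any one of 9 libraries), among them Cdk1, the mitotic kinase, by 3.03 on the log2 scale, and Mki67, the proliferation antigen, by 2.98. The summed level of all 10 listed genes was 17.8 to 24.7 CPM in CTL, 37.1 to 70.8 CPM in CPZ and 17.1 to 28.8 CPM in RCV. What part of the Anln level came from dividing cells was not tested.

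Ermn encodes ermin, an actin-binding protein of mature oligodendrocytes. It had 87.4, 84.5, 95.1, 44.8 and 83.1 CPM in CTL libraries 1 to 5, 37.3, 34.9, 40.0 and 51.9 CPM in CPZ, and 66.1, 102, 53.9 and 57.9 CPM in RCV. CTL library 4 fell inside the range of CPZ, and the other 4 CTL libraries were above all of CPZ. The log2 fold change was -0.94 (standard error 0.24) for CPZ against CTL. The call against CTL was lost in 9 of 22 alternative settings, among them the omission of CTL library 1, 2, 3 or 5 or of CPZ library 1, 2 or 3.

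Tspan2 encodes a tetraspanin of the myelin membrane. It was read at 146, 130, 151, 94.3 and 134 CPM in CTL, at 55.7, 52.5, 60.2 and 73.5 CPM in CPZ and at 166, 208, 135 and 127 CPM in RCV. No CPZ value reached those of another group, and RCV libraries 1 and 2 were above every CTL library. The CPZ mean was 46.2% of CTL, a log2 fold change of -1.11 (standard error 0.17).

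Sirt2, an NAD-dependent deacetylase that acts on tubulin and is abundant in oligodendrocytes, followed a different course. Its CTL values were 120, 111, 130, 128 and 112 CPM and its CPZ values 129, 115, 117 and 135 CPM, which overlap throughout. Its RCV values were 168, 182, 148 and 142 CPM, all of them above every CTL and every CPZ library. The log2 fold change of CPZ against CTL was 0.04 (95% interval -0.13 to 0.21), the narrowest interval of the 9 genes.

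Gpr37, an orphan receptor coupled to G proteins that restrains oligodendrocyte differentiation, is the receptor of the group. It ranged from 71.1 to 109 CPM in CTL (median 96.3), from 52.0 to 80.1 CPM in CPZ (median 64.0) and from 66.1 to 110 CPM in RCV (median 78.2). Adjacent groups overlapped, with CPZ library 4 above CTL library 4. The log2 fold change of CPZ against CTL was -0.52 (95% interval -0.88 to -0.16), which did not pass the test. It passed in 8 of 22 alternative settings, among them the omission of CTL library 4, CPZ library 4 or RCV library 2. With all CPZ and CTL libraries kept, it passed in DESeq2's Wald test, limma-voom, limma on filtered TPM and the 2 groups compared alone. It did not pass in 14 settings, among them the replicate block, unfiltered counts and unfiltered TPM.

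Among the secreted proteins, Klk6, a serine protease of the kallikrein family, was the least abundant. It had 3.81, 4.20, 3.23, 2.14 and 4.58 CPM in CTL, 0.14, 0.73, 0.42 and 2.32 CPM in CPZ and 3.52, 5.02, 5.20 and 3.25 CPM in RCV. The CPZ values rest on 1, 6, 3 and 18 estimated counts, and CPZ library 4 held most of them and stood above CTL library 4. The log2 fold change was -1.94 (standard error 0.46) for CPZ against CTL, and without CPZ library 4 it was -2.96.

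Hapln2 encodes a link protein that joins hyaluronan to proteoglycans at nodes of Ranvier. It was read at 33.2, 25.7, 39.7, 19.0 and 29.5 CPM in CTL, at 10.1, 10.5, 9.16 and 12.5 CPM in CPZ and at 26.8, 32.9, 25.6 and 18.4 CPM in RCV. The CPZ libraries lay close together and below all others. The CPZ mean was 35.9% of the CTL mean, a log2 fold change of -1.47 (standard error 0.21).

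Apod encodes apolipoprotein D, a lipocalin that binds arachidonic acid and is made by oligodendrocytes and by fibroblasts. It ranged from 96.9 to 160 CPM in CTL (median 143), from 89.5 to 137 CPM in CPZ (median 110) and from 132 to 205 CPM in RCV (median 161). Its CPZ values overlapped both other groups, and the log2 fold change was -0.30 (95% interval -0.65 to 0.06) against CTL and -0.56 (95% interval -0.93 to -0.19) against RCV. The 7 fibroblast and leptomeningeal genes were listed beside it since they mark another source of Apod. Their summed level was 89.9 to 185 CPM in CTL, 77.8 to 181 CPM in CPZ and 94.9 to 147 CPM in RCV, and 1 of them, the collagen gene Col1a1, was lower in CPZ than in RCV, by 1.89 on the log2 scale. RCV library 1 held 248 counts of Col1a1 against 34 to 59 in the other RCV libraries, the fold change ran from -2.16 to -0.98 when a library was left out, and the call was lost without any one of 10 libraries (all but RCV libraries 1, 2 and 4). None of the 7 passed for CPZ against CTL in edgeR, at an unadjusted p under 0.05, or in DESeq2 and limma-voom, and Col1a1 passed without RCV library 1. The part of these cells in the Apod values was not tested.

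**Figure D2:**
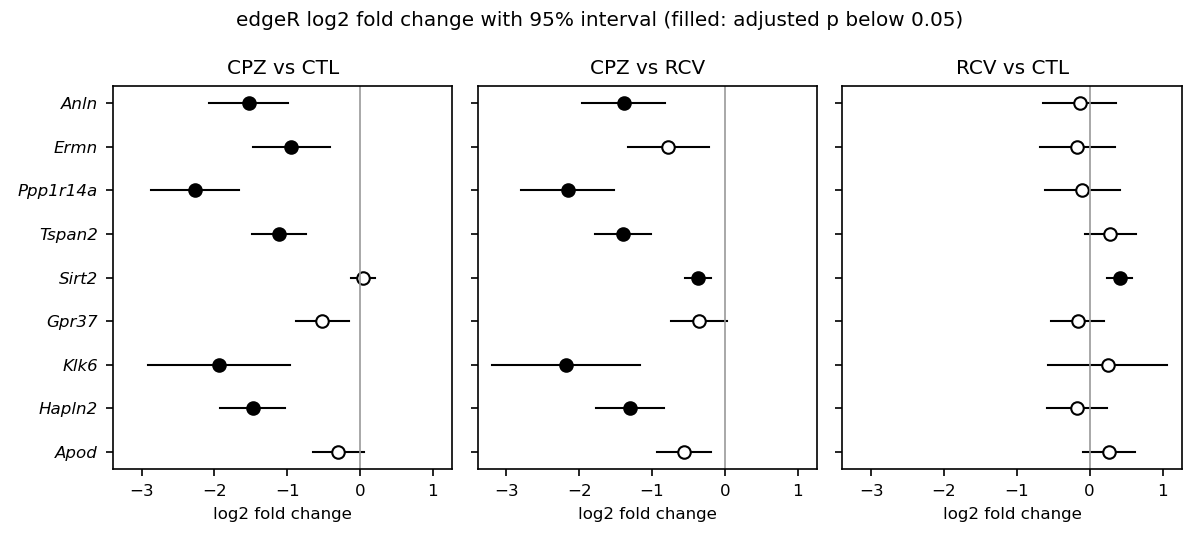
The log2 fold change (x axis) of each gene with its 95% interval from edgeR in CPZ against CTL, CPZ against RCV and RCV against CTL; filled circles have an adjusted p under the threshold of 0.05. In RCV against CTL 8 of 9 intervals include 0, and that of Sirt2 runs from 0.24 to 0.58.

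The question of RCV against CTL is how near these genes stood to the control level after 2 weeks without cuprizone. Of the 9 genes 1 passed the edgeR test, against 0.374% of all genes tested, and 1 did not overlap between the groups, against 2.9% of all genes. In both cases the gene was Sirt2. It rose by 0.41 on the log2 scale (95% interval 0.24 to 0.58, adjusted p = 0.037 by edgeR with Benjamini-Hochberg adjustment), to 133% of the CTL mean, and was higher in 4 of 4 RCV libraries than in any CTL library. The call did not hold in 14 of 22 alternative settings, with an adjusted p between 0.0501 and 0.241, and the range over all 22 was 0.00077 to 0.241. It was lost without any one of the 5 CTL libraries, without CPZ library 2 and without RCV library 1 or 2, and the fold change stayed between 0.34 and 0.46 in every setting.

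The other 8 genes did not pass the test in RCV against CTL in any of the 22 alternative settings, and at an unadjusted p under 0.05 none of the 8 was called. Their log2 fold changes ran from -0.17 for Hapln2 to 0.28 for Tspan2 (95% interval -0.07 to 0.63). The intervals were wide enough that sizable differences were not excluded, from -0.57 to 1.07 for Klk6, from -0.68 to 0.35 for Ermn, from -0.64 to 0.37 for Anln and from -0.62 to 0.41 for Ppp1r14a. The median over the 9 was -0.10 and over all genes -0.0044.

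For the 7 genes whose CPZ-to-CTL interval left out 0, the share of that log2 difference still present in RCV was computed per library, where 0% is the CTL mean and 100% the CPZ mean. It was 6.98 ± 24.1% for Ppp1r14a (mean ± SD, n = 4), 7.33 ± 23.2% for Anln, 11.7 ± 24.1% for Hapln2 and 19.1 ± 45.3% for Ermn. It was -12.1 ± 16.4% for Klk6 and -24.5 ± 29.0% for Tspan2, where a negative share means that the mean lay beyond CTL. Gpr37 had the largest share and the widest spread, at 35.4 ± 65.3%, with RCV library 2 at -47.1% and RCV library 4 at 92.2%. Each SD exceeded the size of its mean. The SD covers the 4 RCV libraries only and takes the CTL and CPZ means as fixed. The difference divided by was known when the genes were chosen. The genes share the same RCV libraries, and within them Tspan2 had a lower share than Ppp1r14a, Anln, Hapln2, Ermn and Gpr37 in 4 of 4, which was seen in the values and not tested. Sirt2 and Apod were left out because their CPZ and CTL means were too close to divide by.

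The libraries of a group did not vary independently from gene to gene. CTL library 4 was the lowest of its group for 8 of the 9 genes (all but Sirt2), and CTL library 3 was the highest for 8 (all but Klk6). CPZ library 4 was the highest of its group for all 9. RCV library 2 was the highest for 8 (all but Klk6), and RCV library 4 was the lowest for 7. The structural myelin genes were ordered alike, with the lowest value in CTL library 4 for 9 of 10, the highest in CTL library 3, CPZ library 4 and RCV library 2 for 10 of 10 each, and the lowest in RCV library 4 for 9 of 10. In CTL library 4 the median deviation of the 9 genes from their group mean was -0.53 on the log2 scale, and in RCV library 2 it was 0.41. The cause of these shared deviations was not tested.

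**Figure D3:**
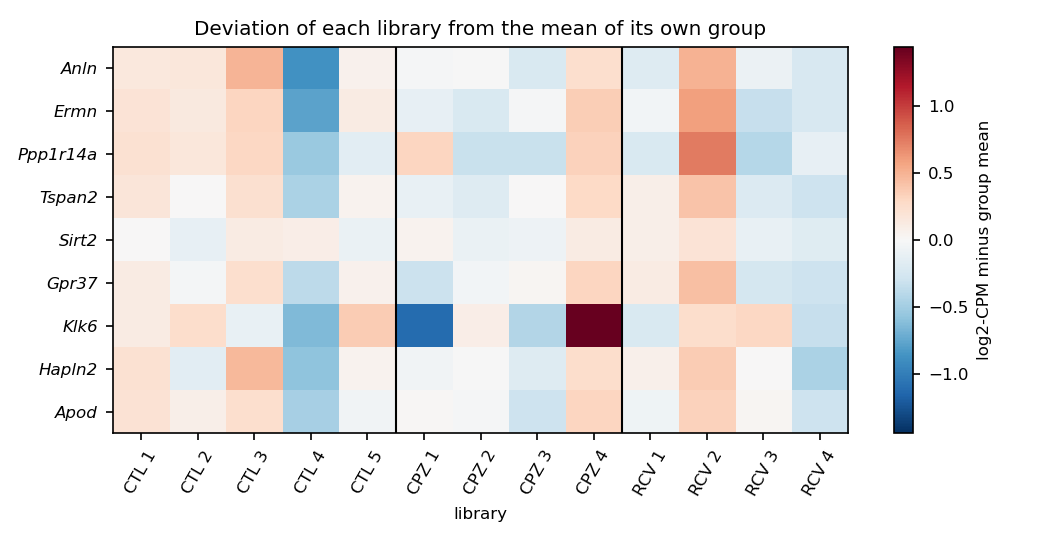
Deviation of each library (columns) from the mean log2-CPM of its own group for each gene (rows), in colour from blue (below) to red (above). CTL 4 is blue for all genes but Sirt2, and CPZ 4 and RCV 2 are red for all 9.

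Taking the ratio of each gene to the mean of the 10 structural myelin genes in the same library removed much of this spread. The median SD over the 9 genes went from 0.34 to 0.16 on the log2 scale in CTL, from 0.25 to 0.18 in CPZ and from 0.34 to 0.16 in RCV, and the SD was smaller as a ratio for 8 of 9 genes in each group. The exception was Sirt2 in CTL (0.11 to 0.35) and in CPZ (0.11 to 0.24), and Klk6 in RCV (0.32 to 0.35). The ratios show how each gene moved relative to the mean of the myelin transcripts. Hapln2 and Anln kept their ratio, with CPZ minus CTL differences of 0.03 and -0.01. Ppp1r14a changed more than the mean of the myelin genes, with a difference of -0.69 and no overlap between CPZ and CTL. It did not change more than each of them, as the log2 fold change was -2.43 for Mal and -2.26 for Ppp1r14a. For Klk6 the difference was -0.52, within its spread.

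The remaining 5 genes changed less than the mean of the structural myelin genes. Pllp, the myelin gene that fell least, had a log2 fold change of -0.50. Tspan2 (-1.11) and Ermn (-0.94) fell further than Pllp, and Apod and Sirt2 did not. Gpr37 (-0.52) was not separated from Pllp. The ratio was higher in CPZ than in CTL by 0.34 for Tspan2 (groups overlapping) and by 0.53 for Ermn, 0.92 for Gpr37, 1.16 for Apod and 1.49 for Sirt2 (no overlap for these 4). The mean log2-CPM of the myelin genes was itself 7.98 in CTL and 6.53 in CPZ, so any gene that did not change rises as a ratio. In RCV minus CTL the ratio difference was -0.35 for Gpr37, with no overlap between the groups, and between -0.34 and -0.27 for Hapln2, Anln, Ppp1r14a and Ermn, with overlap. It was 0.24 for Sirt2, 0.11 for Tspan2, 0.10 for Apod and 0.07 for Klk6, also with overlap. These ratios are descriptions of values that chose the genes, and were not tested. Overlap of the ratios was not counted over all genes, so nothing is read from it. With TPM in place of CPM the Anln difference of CPZ and CTL became 0.19.

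**Figure D4:**
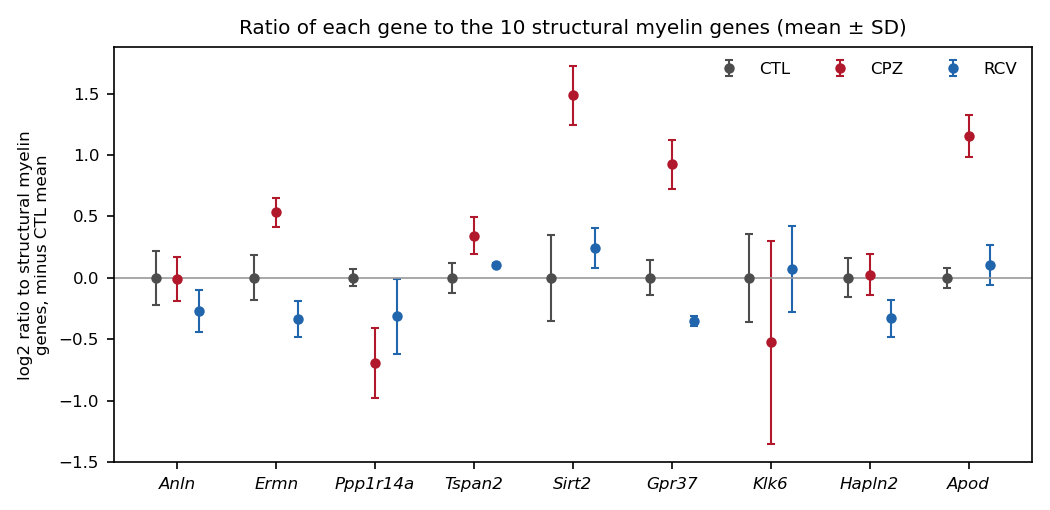
Log2 ratio of each gene to the mean of the 10 structural myelin genes (y axis), shown as the difference from the CTL mean of that ratio, with group means and SD (5 CTL, 4 CPZ and 4 RCV libraries). CPZ lies near 0 for Anln and Hapln2, below 0 for Ppp1r14a and Klk6 and above 0 for the other 5.

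The wider set of late mature oligodendrocyte genes was read beside the 9. The lists of related genes were also chosen with earlier results of these data known, so their counts are a description. Of 25 such genes outside the 9 and outside the structural proteins, 17 fell in CPZ against CTL and none rose in the edgeR test, with a median log2 fold change of -0.80 against -0.020 over all genes. Leaving out a library gave 15 to 18 that fell, the lowest without CPZ library 3. Fa2h, the fatty acid hydroxylase of myelin lipids, was among those that fell, at -1.96. Trf, which encodes transferrin, had the highest at 0.38 and did not pass. In RCV against CTL none of the 25 passed in edgeR, DESeq2 or limma-voom, and none had an unadjusted p under 0.05. Of the structural myelin genes 10 of 10 fell, with a median of -1.496, from Mal at -2.43 to Pllp at -0.50. The call of Pllp was lost without CTL library 1, 2 or 3, CPZ library 1, 2 or 3 or RCV library 1 or 3, and that of Cnp without CTL library 1, 2, 3 or 5 or CPZ library 1, 2 or 3, so that 8 to 10 fell. In RCV against CTL none of the 10 passed by the same tools or at an unadjusted p under 0.05.

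Genes of earlier stages were mostly not called. Of all 14985 genes tested, 1148 were called higher in CPZ against CTL, and nothing is read from 1 call in a list of 8. Of 8 genes of premyelinating oligodendrocytes, 1 passed in CPZ against CTL, Itpr2, a calcium release channel of newly formed cells, which rose by 0.57 on the log2 scale. Enpp6 had the lowest value of that list at -0.14. Of 8 genes of oligodendrocyte precursors, 1 rose, Cspg4 (NG2), by 0.45, a call lost without CTL library 1, 2, 3 or 5, CPZ library 1 or 2 or RCV library 1, and the median was 0.02. Of 8 transcription factors of the lineage, 1 rose, Olig2, by 0.60, and St18 was lowest at -0.45 without passing.

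Among the relatives and partners of the 9 genes, 1 was called lower in CPZ than in CTL. For Anln, 1 of 10 septins and cytoskeletal regulators fell, Septin4, by 0.88 on the log2 scale in CPZ against CTL, and Rhoa, the small GTPase, rose by 0.26. For Ppp1r14a, none of the 9 tested genes of myosin phosphatase and its inhibitors fell, and Ppp1r14b, its paralog, rose by 0.57 and Myl12a, a myosin light chain, by 0.50. The Myl12a call was lost without CTL library 2, 3, 4 or 5, CPZ library 1, 2 or 4 or RCV library 1. For Ermn, Msn (moesin) rose by 1.61 and Ezr (ezrin) by 0.51, and Rdx and Nf2 did not pass. The Ezr call was lost without CPZ library 1. For Tspan2, 4 of 13 other tetraspanins rose and none fell: Cd53 by 2.74, Cd37 by 2.35, Cd9 by 1.60 and Cd63 by 1.02. Cd53 and Cd37 are tetraspanins of leukocytes, and the paper lists Cd9 among the markers of a microglial subcluster associated with cuprizone. Of all 14985 genes tested, 1148 were called higher in CPZ against CTL.

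None of the 6 other sirtuins passed in edgeR, DESeq2 or limma-voom in any of the 3 comparisons. At an unadjusted p under 0.05, 1 did so in RCV against CTL and none in the comparisons of CPZ. In RCV against CTL, where Sirt2 was higher, the others ran from -0.29 for Sirt5 to 0.06 for Sirt1. For Gpr37, its paralog Gpr37l1, which astrocytes express, rose by 0.42 in CPZ against CTL, and Psap, which encodes the proposed ligand prosaposin, had a log2 fold change of 0.10 and did not pass. Of the 7 kallikreins and protease receptors listed beside Klk6, 2 passed the filter on low counts, Klk8 and F2r. Neither was called by any of the 3 tools, and neither had an unadjusted p under 0.05, at 0.36 and -0.03. None of the 7 link proteins and lecticans beside Hapln2 was called in CPZ against CTL by any of the 3 tools (1 at an unadjusted p under 0.05), and their values lay between -0.17 for Ncan and 0.40 for Hapln1. Beside Apod, Apoe, the main lipid carrier of the brain and listed with the lipocalins as an apolipoprotein, rose by 1.17, and Ptgds had the lowest value at -0.84 without passing. The acute phase lipocalin Lcn2 rose from 3 counts in the 5 CTL libraries, 3 of which had none, to 339 in the 4 CPZ libraries. The ratio was 122 at equal depth (95% counting interval 41.4 to 595). That interval comes from pooled counts and leaves out the spread between libraries. The fitted log2 fold change of Lcn2, 6.66, depends on the prior count.

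**Figure D5:**
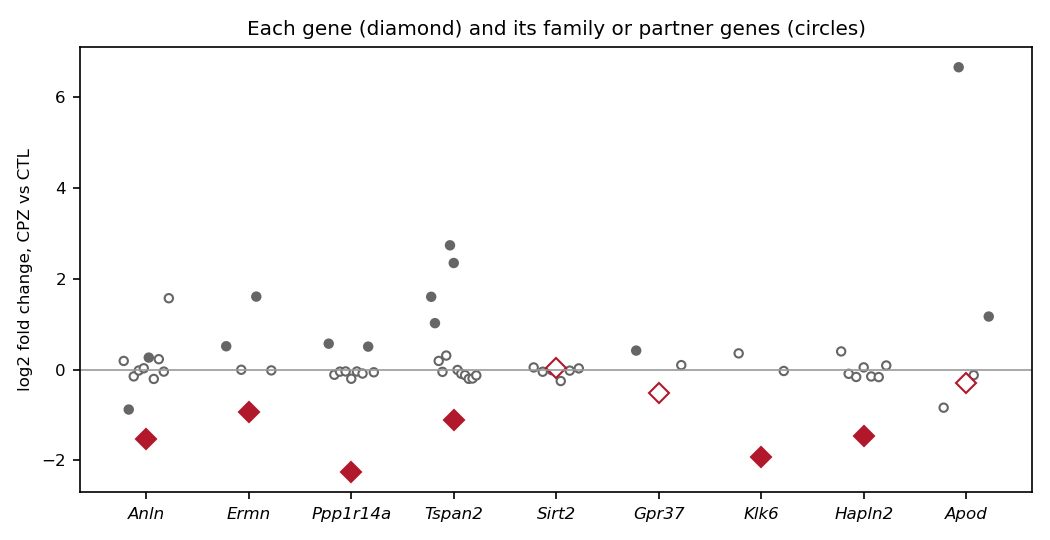
Log2 fold change of CPZ against CTL (y axis) for each of the 9 genes (diamonds) and for its family or partner genes (circles); filled symbols passed the edgeR test. Septin4, among the Anln partners at -0.88, is the one filled circle below 0, and the filled circles above 0 reach 6.66 (Lcn2).

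Other cell types moved in the same libraries. All 10 microglial genes rose in CPZ against CTL, with a median log2 fold change of 2.54, and their summed level was 353 to 427 CPM in CTL, 1271 to 2631 CPM in CPZ and 550 to 782 CPM in RCV. Of 8 astrocyte genes 4 rose, led by Gfap, the intermediate filament of reactive astrocytes, by 2.43, and Gfap was still higher in RCV than in CTL, by 1.80. None of 8 neuronal, 7 endothelial and mural or 6 choroid plexus genes was called in CPZ against CTL by edgeR, DESeq2 or limma-voom, with 0, 1 and 0 at an unadjusted p under 0.05. The choroid plexus genes summed to 418 to 2744 CPM in CTL, 616 to 2340 in CPZ and 15.1 to 1428 in RCV, which spans a wide range within each group. In RCV against CTL, Cldn5, the tight junction gene of endothelial cells, fell by 0.68, a call lost without CTL library 1, 3, 4 or 5 or RCV library 2 or 4. The neuronal genes had a median log2 fold change of -0.07 in CPZ against CTL. The part of the microglial and astrocytic changes in the CPZ values of the 9 genes was not tested.

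Outside the 9, the genes whose profile over the 13 libraries lay nearest to the mean profile of the 9 were Plekhh1, Adamts4, Tmem88b, Sec14l5 and Efhd1, out of 14134 genes whose log2-CPM averaged 1 or more. Likeness was the root mean square difference of log2-CPM after each gene's own mean was removed, and it was 0.11 for Plekhh1 and 0.16 for Efhd1. By the same measure Tspan2 was the member nearest to the mean profile of the 9, at 0.14, and Klk6 the farthest, at 0.64, followed by Sirt2 at 0.52 and Ppp1r14a at 0.50. The nearest gene to each member was Prr18 for Hapln2 (0.12), Aspa for Anln (0.14), Opalin for Ppp1r14a (0.27), Cers2 for Apod (0.13), Zfp61 for Sirt2 (0.10), Tmem88b for Ermn (0.15), Kif13b for Gpr37 (0.11), Adamts4 for Tspan2 (0.13) and Mog for Klk6 (0.44). Aspa encodes aspartoacylase, Cers2 the ceramide synthase of very long chain lipids, and Mog and Opalin are structural myelin genes. The neighbour of Sirt2 is a zinc finger gene with a log2 fold change of 0.01 in CPZ against CTL and 0.31 in RCV against CTL. The libraries are shared by all profiles, and these distances carry no test.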

How the data were processed

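RNA-seq of 13 mouse brain hemisphere libraries was analysed from deposited files. The authors gave estimated counts (expected counts, not scaled to depth) and TPM for each gene, with gene symbols in a separate file. The labels name STAR, RSEM and mm10 in the submitters' processing notes, and the paper names the RNASequest pipeline. Libraries were prepared with a Kapa mRNA HyperPrep kit. The table held 92 identifiers with no gene name, which were left out, and 54349 identifiers matched GENCODE M21 (GRCm38). Groups were taken from the treatment field of the labels, where titles of RCV libraries begin with "Veh".

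Rounded counts that passed filterByExpr were fitted in edgeR 4.0.16 (TMM factors, quasi-likelihood, robust option), with all libraries in 1 model, a mean for each group and no covariate. Benjamini-Hochberg adjustment ran over 14985 genes, and an adjusted p under 0.05 was a call. CPM used the TMM-scaled totals, and log2-CPM a prior count of 2. The procedure was tested on simulated counts. Alternatives were DESeq2 1.42.0 (its size factors and its Wald test), limma-voom (limma 3.58.1), limma on log2(TPM + 1) or log2(TPM + 0.1), no filter, the 2 groups compared alone, a replicate block and the omission of each library. The members and the lists of related genes were chosen with earlier results of these data known. Genes named outside the 9 were the lowest and highest of each list, listed genes that passed against their list, the 5 genes nearest in profile to the mean of the 9 and the 1 nearest to each member. A few listed genes and 1 list are not reported here. Nfkbib was named for its overlap with Sirt2, and Cnp and Kif11 for calls lost without a library. Fa2h, Cd37, Cd9, Cd63, Myl12a, Rhoa and Apoe were named as examples after their values were seen. The log2 ratio to structural myelin genes was recomputed in TPM and without each CTL or CPZ library, and the related lists without each library, alternatives chosen after seeing the data. The software was R 4.3.3, Python with numpy, pandas and matplotlib.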

Additional observations from a re-analysis of the deposited data

Results flagged for a closer look

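A library far from the others of its group was found in 1 of the 27 combinations of gene and group, by Dixon's ratio of the gap to the range. Ermn in CTL library 4 had a log2-CPM of 5.50, and the other 4 CTL libraries lay between 6.38 and 6.58, a gap of 0.82 of the whole range. About 1 in 20 groups would pass this limit by chance. The same library was the lowest of its group for 8 of the 9 genes and for 9 of 10 structural myelin genes, so the value was not particular to Ermn.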

How the results depend on the processing

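The number of the 9 genes called in RCV against CTL was 1 and became 0 with only the 2 groups compared, with the replicate block, with limma-voom and with all 3 settings on TPM, and it ran from 0 to 1 when a library was left out. Leaving out a library gave 5 to 7 called genes for CPZ against CTL (7 without CTL library 4, CPZ library 4 or RCV library 2). For CPZ against RCV it gave 5 to 8 (8 without CTL library 4). Of 198 fold changes per comparison, 179 kept their direction and side of the threshold for CPZ against CTL, 190 for CPZ against RCV and 183 for RCV against CTL. Signs turned for Sirt2 in CPZ against CTL without CPZ library 4 (omitting each library gave -0.0010 to 0.075) and for Ppp1r14a in RCV against CTL without RCV library 3 (-0.44 to 0.029), neither called in any setting. Replicate numbers did not pair the libraries, as deviations of same-numbered libraries correlated at -0.20 to 0.14, and with the replicate block, which leaves out CTL library 5, 4 of the 9 were called for CPZ against CTL (Klk6 and Ermn were lost), 5 for CPZ against RCV (Sirt2 was lost) and 0 for RCV against CTL. Unfiltered TPM ended the call of Anln in CPZ against RCV. The log2 ratio of Anln to structural myelin genes, CPZ minus CTL, was 0.19 with log2(TPM + 1), and the cause was not tested. Over all genes, RCV against CTL gave 56 calls in edgeR, 125 in DESeq2, 16 in limma-voom, 22 with unfiltered TPM and 21 to 87 without a library. CPZ against RCV gave 1050, against 599, 508 and 487 on TPM and 632 without CPZ library 1, and CPZ against CTL gave 1522, against 992 on unfiltered TPM. Depth limits Klk6, which rests on at most 31 counts in a library.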
